A study of Homo sapiens with 4 samples.

Results

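The mature miRNAs hsa-miR-99a-5p, hsa-miR-99b-5p and hsa-miR-100-5p, which form the miR-99/100 family, and hsa-miR-125a-5p and hsa-miR-125b-5p, which form the miR-125 family, were followed through the pull-down libraries of HGC27 and AGS cells. They were taken by name, as the partners of let-7 in 3 paralogous gene clusters, and all 5 were found among the 843 distinct miRNA names of the tables. Small RNA sequencing had been run on the RNA that a biotinylated positive or negative RNA probe recovered from cell lysates on streptavidin beads. The probes were made to the untranslated end (3′-UTR) of the mRNA of FN1, which encodes fibronectin. HGC27 and AGS are established human gastric cancer cell lines, and in all libraries the cells carried FN1 3′-UTR overexpression from a lentivirus, as stable populations selected with puromycin. The 4 groups were HGC27 with the negative probe, HGC27 with the positive probe, AGS with the negative probe and AGS with the positive probe, with 1 library each. Neither the labels nor the methods tie the antisense strand to the positive or the negative probe, and the ratios below therefore name the probe, not a strand. There were no replicates, so differences between the 2 libraries of a line carry no test, and the intervals given for single values cover counting error only.

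A miRNA is cut from a hairpin precursor as a duplex, 1 strand of which is usually kept by an Argonaute protein and guides it to target mRNAs through its seed, here bases 2 to 8. The miR-99/100, let-7 and miR-125 families lie side by side in conserved clusters that arose by duplication, and the products of a cluster are generally made from shared primary transcripts. let-7 miRNAs are known as repressors of growth genes in differentiated cells, miR-125 is the relative of the worm timing gene lin-4, and miR-99/100 are known for repressing MTOR pathway genes.

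The sequences show what the members share and where they part. They are those of the deposited table, equal to RefSeq for GRCh38.p14, and run from 5′ to 3′ with the seed in capitals. The 3 members of the miR-99/100 family have 1 seed:
hsa-miR-99a-5p: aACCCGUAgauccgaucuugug
hsa-miR-99b-5p: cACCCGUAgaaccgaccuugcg
hsa-miR-100-5p: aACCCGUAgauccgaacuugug
The miR-125 pair shares another:
hsa-miR-125a-5p: uCCCUGAGacccuuuaaccuguga
hsa-miR-125b-5p: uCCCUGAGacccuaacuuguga
The let-7 members of the same clusters have a seed of their own:
hsa-let-7e-5p: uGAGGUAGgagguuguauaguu
hsa-let-7c-5p: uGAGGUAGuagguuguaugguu
hsa-let-7a-5p: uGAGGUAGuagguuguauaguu

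Counted from the 5′ end, miR-99a-5p and miR-100-5p differ by U16A alone, while miR-99a-5p and miR-99b-5p differ by A1C, U11A, U16C and U21C. miR-125a-5p and miR-125b-5p share their first 13 bases and their last 5. let-7c-5p and let-7a-5p differ by G19A, and let-7e-5p and let-7a-5p by G9U. Where 2 mature miRNAs differ by 1 base, a read with an error can be counted for its neighbour, and the mismatches allowed by the authors are not given in the sources used here. No other entry of the table shared 16 consecutive bases with a member.

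The cluster of chromosome 19 holds miR-99b-5p at chr19:51692618-51692639, let-7e-5p at chr19:51692793-51692814 and miR-125a-5p at chr19:51693268-51693291, all on the plus strand, within 674 bases and in an intron of SPACA6. The cluster of chromosome 21 holds miR-99a-5p at chr21:16539101-16539122, let-7c-5p at chr21:16539838-16539859 and miR-125b-5p, from the hairpin MIR125B2, at chr21:16590253-16590274, on the plus strand in introns of the long non-coding RNA MIR99AHG. The cluster of chromosome 11 holds miR-100-5p at chr11:122152275-122152296, let-7a-5p, from MIRLET7A2, at chr11:122146568-122146589 and miR-125b-5p, from MIR125B1, at chr11:122099809-122099830, on the minus strand in introns of MIR100HG. Positions are GRCh38.p14 from RefSeq, and the host genes come from GENCODE 29. The same mature miR-125b-5p is cut from 2 of the clusters, and let-7a-5p also has hairpins on chromosomes 9 and 22, so their counts cannot be assigned to 1 locus.

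The libraries held between 1296853 and 2955078 miRNA counts. A single miRNA took 80.8% of the counts in the AGS negative probe library and 37.5% in the AGS positive probe library, miR-372-3p, and another, miR-148a-3p, took 50.6% (negative probe) and 35.0% (positive probe) in HGC27. A level below is the deposited score, tags per 1000000, and a ratio is that of score + 1 in 2 libraries. Because the score depends on what the other miRNAs take, comparisons between 2 miRNAs were also made as cross ratios of their counts, in which any scaling of the libraries cancels. The 5 members together made up 13.2% of the counts of the HGC27 negative probe library (95% Wilson interval 13.1 to 13.2), 4.82% with the HGC27 positive probe, 4.41% with the AGS negative probe and 6.79% with the AGS positive probe.

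miR-99b-5p was the most abundant member with the negative probe in both lines and was lower with the positive probe in both. Its score was 29357 with the negative and 6149 with the positive probe in HGC27. In AGS it was 15840 with the negative and 2621 with the positive probe. It ranked 2 and 3 among the known miRNAs with the negative probe in HGC27 and AGS, against 11 and 13 with the positive probe. The ratio was 0.209 in HGC27 (exact 95% interval 0.206 to 0.213), 4.77-fold lower with the positive probe, and 0.166 in AGS (0.162 to 0.169), 6.04-fold lower.

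The other members of its seed family were lower with the positive probe in HGC27 too. miR-100-5p had a score of 20997 with the negative and 7735 with the positive probe there, a ratio of 0.368 (0.363 to 0.374). miR-99a-5p had scores of 9084 and 2709, a ratio of 0.298 (0.291 to 0.306). In AGS neither was lower on the deposited scale. miR-100-5p had a score of 161 with the negative and 322 with the positive probe, a ratio of 1.99 (1.85 to 2.17). miR-99a-5p was close to absent, with scores of 5 and 7 from 35 and 30 counts, and the interval of its ratio of 1.33 ran from 0.854 to 2.41. These AGS directions depended on the scaling: over a library total that omits miR-372-3p the log2 ratio was -0.50 for miR-100-5p, against 1.00, and -0.95 for miR-99a-5p, against 0.42, and that of miR-99a-5p was -0.19 with TMM, the scaling of edgeR. The log2 ratio of miR-99b-5p in AGS was between -4.10 and -2.39 under all scalings.

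The miR-125 members behaved otherwise. miR-125a-5p, cut from the same stretch of chromosome 19 as miR-99b-5p, had a score of 4137 with the negative and 4088 with the positive probe in HGC27, a ratio of 0.988 (0.963 to 1.01). In AGS its score was 2132 with the negative and 21298 with the positive probe, a ratio of 9.99 (9.82 to 10.2), and it became the miRNA ranked 4 of that library. miR-125b-5p had scores of 2359 and 1944 in HGC27, a ratio of 0.824 (0.795 to 0.854). Its AGS scores of 3 and 7 came from 24 and 31 counts, and the ratio of 2.00 (1.23 to 3.86) sat on the threshold used here and became a log2 ratio of -0.37 without miR-372-3p in the total. The log2 ratio of miR-125a-5p in AGS stayed between 1.82 and 3.52 under all scalings.

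With a ratio of at least 2 as enriched and of at most 0.5 as depleted, 0 of the 5 members were enriched and 3 depleted in HGC27. The background there was 37.5% of the 755 miRNAs listed in either library enriched and 34% depleted. In AGS 2 of the 5 were enriched, against 39.4% of 459, and 1 was depleted, against 22.7%. The shares of members thus stand on counts of 0 to 3 and are described rather than tested. The median log2 ratio of the members was -1.44 in HGC27 and 1.00 in AGS, beside medians of -0.23 and 0.00 over the 190 known miRNAs with at least 100 counts. One of the AGS calls, miR-125b-5p, was lost when unrounded tags were used.

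**Figure D1:**
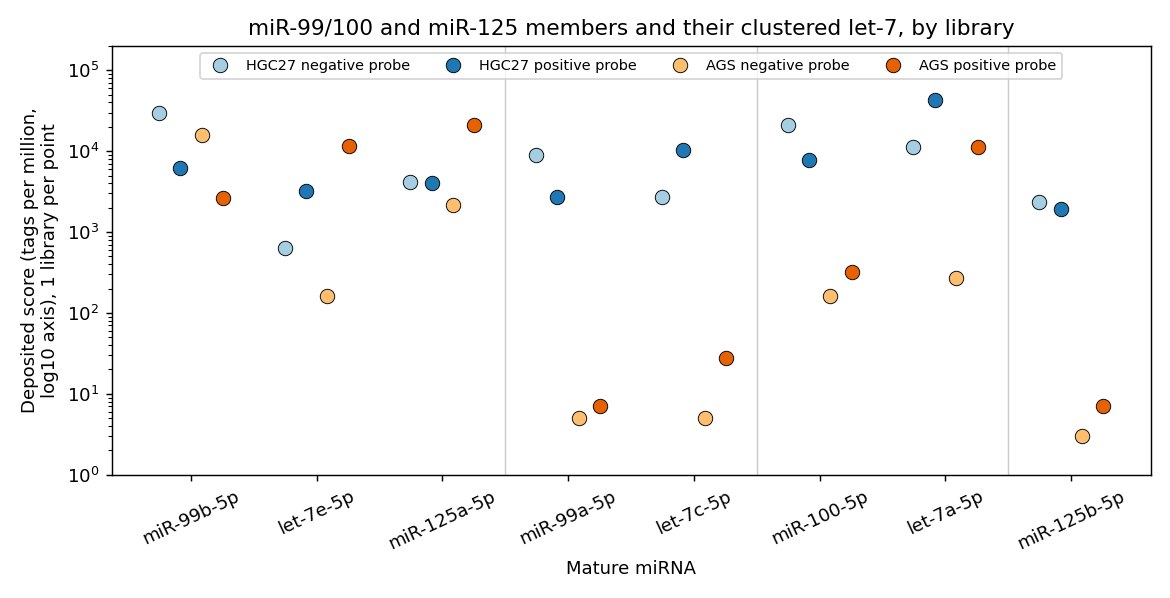
Deposited score (tags per 1000000, log10 axis) of the 5 members and their clustered let-7 miRNAs, 1 point per library, with vertical lines between clusters and miR-125b-5p, which belongs to 2 of them, at the right. The miR-99b-5p points of the positive probe lie below those of the negative probe in both lines, from 29357 to 6149 and from 15840 to 2621, while those of let-7e-5p lie above, and miR-99a-5p and miR-125b-5p are at 7 or less in AGS.

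The clustered let-7 miRNAs, by contrast, were recovered more with the positive probe in both lines. let-7e-5p, the neighbour of miR-99b-5p, went from a score of 633 to 3238 in HGC27 and from 160 to 11611 in AGS, ratios of 5.11 (4.86 to 5.38) and 72.1 (68.5 to 77.1). let-7c-5p, the neighbour of miR-99a-5p, had ratios of 3.78 in HGC27 and 4.83 in AGS, the latter from 38 and 121 counts. let-7a-5p, which shares a cluster with miR-100-5p, had ratios of 3.74 and 41.3. They were no exception in their family. All 9 miRNAs of the let-7 list (let-7a to let-7g, let-7i and miR-98) had a ratio of at least 2 in both lines on the deposited scale. The log2 ratios ran from 1.09 to 2.61 (HGC27) and from 2.27 to 6.94 (AGS). Ratios of let-7 under other scalings are not given here, so the count of 9 in AGS may depend on the scaling. The enrichment of let-7 was known from these libraries when the clusters were chosen, so it adds nothing independent here.

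**Figure D2:**
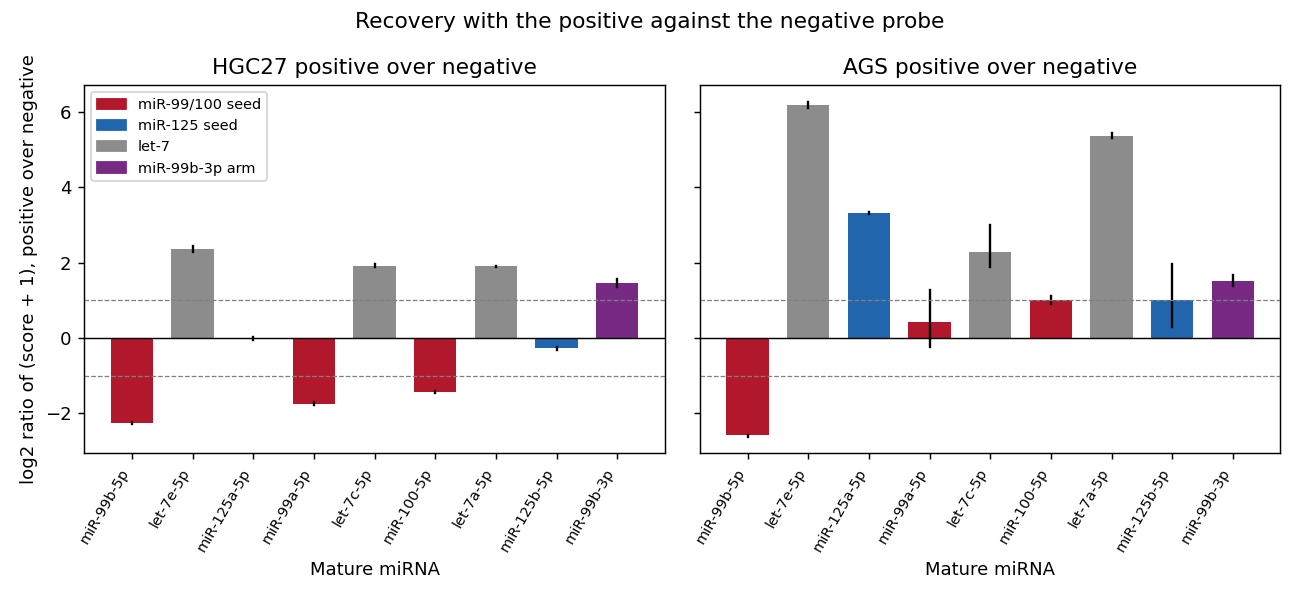
log2 ratio of score + 1, positive over negative probe, in HGC27 (left) and AGS (right), with bars for single miRNAs, exact 95% counting intervals as black lines and dashed lines at the thresholds. The miR-99/100 bars lie below 0 in HGC27, from -2.26 to -1.44, while on this scale only that of miR-99b-5p does in AGS, at -2.59, and every let-7 bar lies above the members of its cluster.

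Whether the members moved with the let-7 of their cluster was asked of 6 pairs in each line. The cross ratio divides the change of the member by the change of its let-7, so 1 means that they moved alike. It lay below 1 in 6 of 6 pairs in HGC27 and in 6 of 6 in AGS, and the conditional exact interval stayed below 1 in each. This count says little about the members, since let-7 had been chosen as highly enriched: of 176 other known miRNAs with at least 100 counts, between 93.2% and 93.8% had a lower ratio than the clustered let-7 in HGC27 and between 84.1% and 99.4% in AGS. The pairs share miRNAs and libraries, so these are not 12 separate observations. In HGC27 members lagged let-7 by 4.54-fold to 24.4-fold, and in AGS by 2.47-fold to 439-fold.

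The pair on chromosome 19 parted furthest. There were 46.4 counts of miR-99b-5p for each count of let-7e-5p with the negative probe in HGC27 and 1.9 with the positive probe. In AGS there were 99.1 with the negative probe and 0.226 with the positive probe, so that the order of the pair was turned over. The cross ratio was 0.041 in HGC27 (0.0388 to 0.0432) and 0.00228 in AGS (0.00214 to 0.00242). miR-125a-5p stayed closer to let-7e-5p, and the cross ratio was 0.193 for HGC27 (0.183 to 0.205) and 0.138 for AGS (0.129 to 0.146). It therefore changed in the direction of let-7e-5p in AGS, by less, and hardly at all in HGC27.

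On chromosome 21, miR-99a-5p against let-7c-5p gave 0.0788 (0.0761 to 0.0817) in HGC27 and 0.269 (0.14 to 0.518) in AGS. miR-125b-5p against let-7c-5p gave 0.218 (0.209 to 0.228) and 0.406 (0.203 to 0.819). The AGS values rest on 24 to 121 counts per library and have wide intervals. On chromosome 11, miR-100-5p against let-7a-5p gave 0.0984 for HGC27 (0.0965 to 0.1) and 0.0483 for AGS (0.0441 to 0.053). There, miR-125b-5p against let-7a-5p gave 0.22 (0.212 to 0.229) and 0.0524 (0.0297 to 0.0935).

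**Figure D3:**
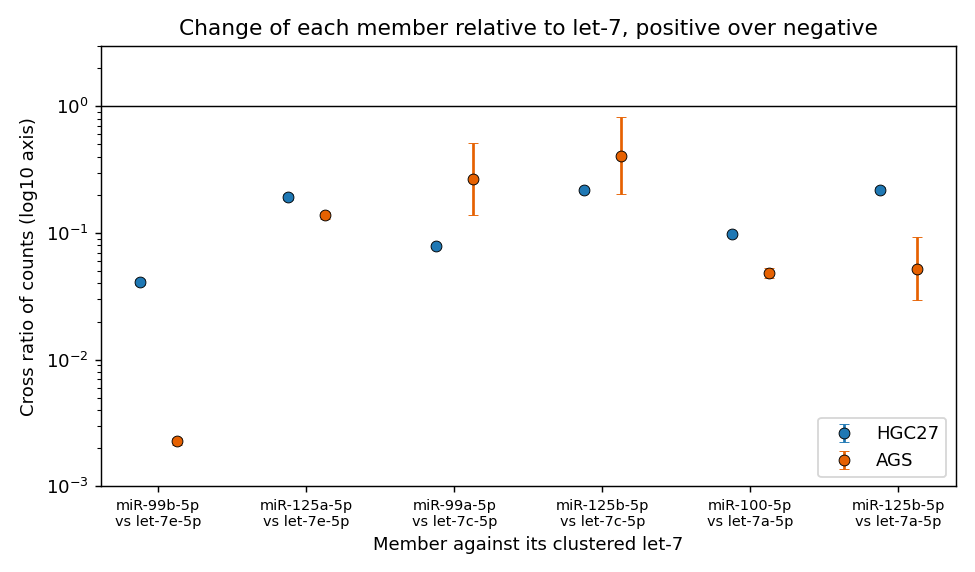
Cross ratio of counts (log10 axis) of each member against its clustered let-7, positive over negative probe, for HGC27 (blue) and AGS (orange), with conditional exact 95% intervals where they are wider than the points. All 12 points lie below the line at 1, and miR-99b-5p against let-7e-5p is the lowest in both lines, at 0.041 and 0.00228.

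The families could also be compared within a cluster without let-7. Relative to miR-125a-5p, miR-99b-5p was lower with the positive probe by 4.72-fold in HGC27 (4.58 to 4.86) and by 60.4-fold in AGS (58.8 to 62). miR-99a-5p was 2.76-fold lower relative to miR-125b-5p in HGC27 (2.64 to 2.89), and in AGS the interval of 0.688 to 3.31 took in 1. miR-100-5p was 2.24-fold lower relative to miR-125b-5p in HGC27 (2.15 to 2.33), and in AGS the interval of 0.612 to 1.94 took in 1. Summed over each family, there were 9.15 counts of the miR-99/100 seed for each count of the miR-125 seed with the negative probe in HGC27 and 2.75 with the positive probe. In AGS there were 7.5 with the negative and 0.138 with the positive probe. The AGS sums are nearly all miR-99b-5p, miR-100-5p and miR-125a-5p.

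The make-up of each cluster changed accordingly. On chromosome 19, miR-99b-5p supplied 86.0% of the 5p counts with the negative probe in HGC27 (95% Wilson interval 85.8 to 86.2) and 87.4% in AGS (87.2 to 87.5), close to each other. With the positive probe it supplied 45.6% in HGC27 (45.1 to 46.1) and 7.38% in AGS (7.25 to 7.51), where miR-125a-5p reached 59.9% and let-7e-5p 32.7%. On chromosome 21 the share of miR-99a-5p was 64.2% with the negative and 18.2% with the positive probe in HGC27, and let-7c-5p went from 19.1% to 68.7%. In AGS that cluster had 97 and 182 counts, and miR-99a-5p held 36.1% (27.2 to 46.0) and 16.5% (11.8 to 22.6) of them. On chromosome 11, with let-7a-5p from all its hairpins, miR-100-5p held 60.6% and 14.9% in HGC27 and 36.8% and 2.77% in AGS. A share falls when a neighbour gains, and in AGS the scores of miR-99a-5p and miR-100-5p were not lower with the positive probe, while those of let-7c-5p and let-7a-5p were higher.

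**Figure D4:**
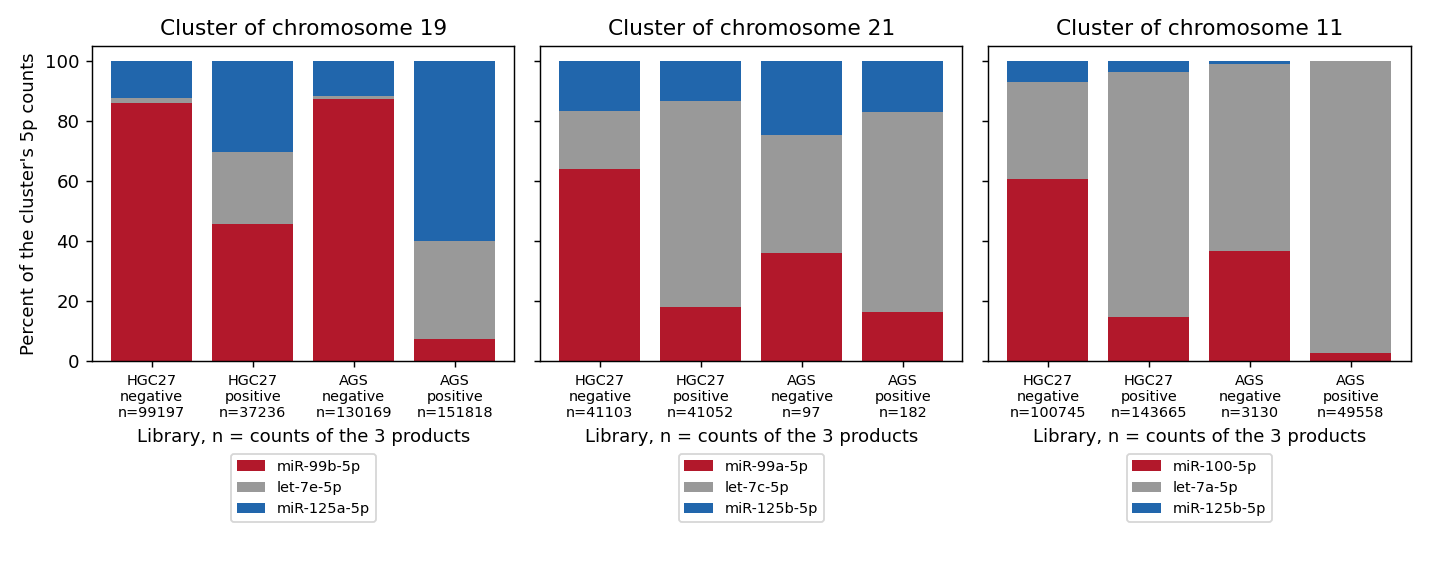
Percent of the 5p counts of each cluster given by its miR-99/100 member (red), let-7 (grey) and miR-125 member (blue) in the 4 libraries, with the summed counts under each bar and miR-125b-5p entered in both of its clusters. The red part on chromosome 19 goes from 87.4% with the negative to 7.38% with the positive probe in AGS, and from 86.0% to 45.6% in HGC27.

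The other arms of the hairpins gave a comparison within 1 precursor. Only the hairpin of miR-99b had a well-counted second arm, shown here because it went the other way from its partner on the deposited scale:
hsa-miR-99b-3p: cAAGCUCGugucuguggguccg
It lies at chr19:51692656-51692677 and has a seed of its own. Its score was 302 with the negative and 825 with the positive probe in HGC27, and 89 and 256 in AGS. The ratios were 2.73 (2.52 to 2.95) and 2.86 (2.61 to 3.17), while those of miR-99b-5p were below 1. A ratio of at least 2 was common, at 37.5% of 755 listed miRNAs in HGC27 and 39.4% of 459 in AGS. Ratios of the 3p arm under other scalings are not given here, so its rise in AGS may depend on the scaling. The counts of 1 arm per count of the other do not depend on it. There were 97.2 counts of the 5p arm for each count of the 3p arm with the negative probe in HGC27 and 7.46 with the positive probe, and 178 and 10.2 in AGS. Relative to the 3p arm the 5p arm was lower with the positive probe by 13-fold in HGC27 (12 to 14.1) and by 17.4-fold in AGS (15.7 to 19.2).

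The remaining arms were rare. let-7e-3p had 3 and 10 counts with the negative and positive probe in HGC27 and 5 and 11 in AGS. miR-125a-3p was listed in the AGS positive probe library alone, with 2 counts. miR-125b-1-3p, which belongs to the hairpin of chromosome 11, had 11 and 43 counts in HGC27 and 8 and 6 in AGS. miR-125b-2-3p, which belongs to that of chromosome 21, had 44 and 25 counts in HGC27 and was listed at 0 in both AGS libraries, as was let-7c-3p, with 12 and 15 counts in HGC27. The lowest count in the table is 2, so an entry at 0 may have had a read. No 3p arm of miR-99a or miR-100 was among the names of the table.

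The probe was then tested over both lines, with HGC27 and AGS standing in for replicates. edgeR's quasi-likelihood test called 19 of 271 miRNAs, 7.01%, and 0 of the 5 members. None had an unadjusted p under 0.05 either, whereas DESeq2 called 1, miR-99b-5p, at an adjusted p of 0.018. The log2 change of miR-99b-5p with the positive probe was -2.83 with a standard error of 1.94 and an adjusted p of 0.388 in edgeR. That of miR-99a-5p was -1.04 with a standard error of 1.28 and that of miR-100-5p -0.63 with 1.39. miR-125a-5p had 1.24 with a standard error of 1.80 and miR-125b-5p 0.01 with 1.15. The adjusted p of the 3 clustered let-7 miRNAs lay between 0.159 and 0.419 in edgeR, so this fit separated neither group from 0, and DESeq2 called all 3, at adjusted p of 0.000145 for let-7e-5p, 0.0397 for let-7c-5p and 0.00101 for let-7a-5p. The fit had 1 residual degree of freedom, and the spread it shared over all miRNAs was wide, with a biological coefficient of variation of 0.612.

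The lines were compared with each probe in turn. With the negative probe, miR-99a-5p had a score of 9084 in HGC27 and 5 in AGS, miR-125b-5p one of 2359 and 3, and miR-100-5p one of 20997 and 161. With the positive probe these were 2709 and 7, 1944 and 7, and 7735 and 322. Of the products of chromosome 19, miR-99b-5p was at 29357 in HGC27 and 15840 in AGS and miR-125a-5p at 4137 and 2132 with the negative probe. In the positive probe libraries miR-125a-5p was lower in HGC27 than in AGS, 4088 against 21298, and miR-99b-5p was 6149 against 2621.

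A ratio of HGC27 over AGS of at least 2 was reached by 3 of the 5 members with the negative probe, where 86% of 615 listed miRNAs did, and by 4 of 5 with the positive probe, where 75.3% of 684 did. A ratio of at most 0.5 was reached by 0 of 5 with the negative probe, against 6.02% of all, and by 1 of 5, miR-125a-5p, with the positive probe, against 12.9%. Most miRNAs were thus higher in HGC27 on this scale, on which miR-372-3p takes much of the AGS counts. Over the 453 miRNAs with at least 10 counts, the median log2 ratio of HGC27 over AGS was 2.19 with the negative and 2.00 with the positive probe. With TMM scaling it was 0.63 and 0.90. The log2 ratio of miR-99b-5p with the positive probe, 1.23 on the deposited scale, was -1.02 with TMM and -1.33 with DESeq2 size factors, so its direction between lines depends on the scaling. With the negative probe the same held for miR-99b-5p, 0.89 on the deposited scale and -2.15 with TMM, and for miR-125a-5p, 0.96 and -2.08. miR-99a-5p, miR-100-5p and miR-125b-5p were higher in HGC27 and miR-125a-5p with the positive probe lower under every scaling tried. miR-99a-5p, at 10.56 and 8.40, and miR-125b-5p, at 9.20 and 7.93, lay far above the median.

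edgeR called the line for 81 of 271 miRNAs, 29.9%, and for 2 of the 5 members, with the probes standing in for replicates. miR-99a-5p was higher in HGC27 by a log2 value of 6.85 (standard error 1.60, edgeR adjusted p = 0.000362) and miR-125b-5p by 5.88 (standard error 1.42, edgeR adjusted p = 0.000533). let-7c-5p, of the same cluster on chromosome 21, was higher by 5.87 (edgeR adjusted p = 0.00118). All 3 mature 5p products of that cluster were therefore called in the same direction. The counts of miR-125b-5p, also cut from chromosome 11, cannot be placed on chromosome 21 alone. The rare arms miR-125b-2-3p and let-7c-3p of the chromosome 21 cluster were also called by edgeR, at adjusted p of 0.00285 and 0.015. Both rest on 12 to 44 counts in HGC27 and 0 in AGS. DESeq2 gave an adjusted p of 0.236 for miR-125b-2-3p and none for let-7c-3p. The arm of the other miR-125b hairpin, miR-125b-1-3p, was not called, at -0.21 (edgeR adjusted p = 0.875). miR-100-5p was not called at 2.93 (standard error 1.48, edgeR adjusted p = 0.127). The values were -1.82 for miR-99b-5p (standard error 1.88, edgeR adjusted p = 0.509) and -3.59 for miR-125a-5p (standard error 1.91, edgeR adjusted p = 0.152). DESeq2 did call miR-100-5p and miR-125a-5p for the line, at adjusted p of 0.00631 and 0.00031, and gave 0.0579 for miR-99b-5p. The median over all tested miRNAs was 0.63.

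Ratios of same-seed miRNAs within a library do not depend on scaling. For every 100 counts of miR-99b-5p there were 30.9 counts of miR-99a-5p with the negative probe in HGC27 and 44.1 with the positive probe, but 0.0308 and 0.268 in AGS. For every 100 counts of miR-125a-5p there were 57.0 and 47.6 counts of miR-125b-5p in HGC27, and 0.157 and 0.0341 in AGS. miR-100-5p took a middle place, with 71.5 and 126 counts per 100 of miR-99b-5p in HGC27 and 1.01 and 12.3 in AGS. Between the lines these ratios differed with the negative probe by 1005-fold for miR-99a-5p (723 to 1444), by 364-fold for miR-125b-5p (244 to 568) and by 70.5-fold for miR-100-5p (66.5 to 74.9). The chromosome 19 pair of miR-99b-5p and miR-125a-5p differed between the lines with the negative probe by 1.05-fold (1.02 to 1.07). With the positive probe that pair differed by 12.2-fold (11.8 to 12.6). The ratios to the same-seed miRNA then differed by 164-fold for miR-99a-5p (115 to 244), 1396-fold for miR-125b-5p (982 to 2058) and 10.3-fold for miR-100-5p (9.66 to 10.9).

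**Figure D5:**
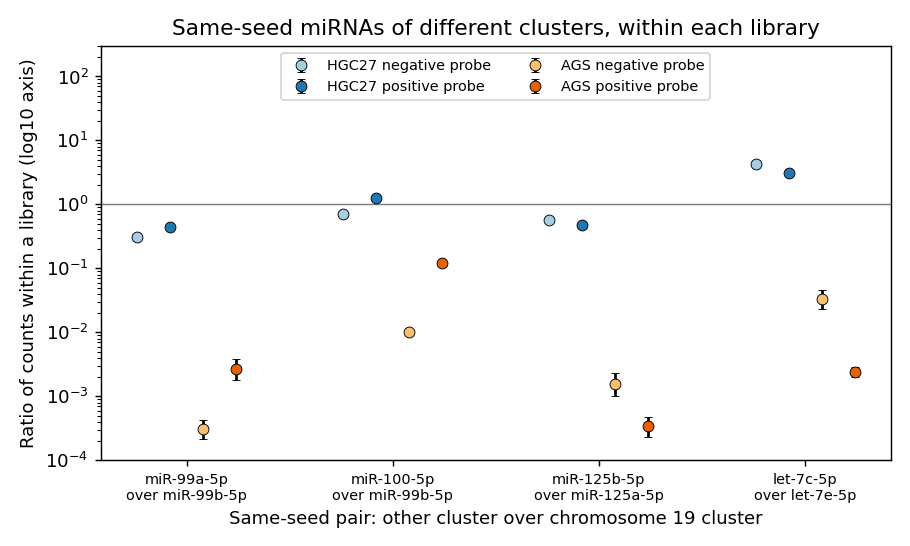
Ratio of the counts of same-seed miRNAs from different clusters within each library (log10 axis), with exact 95% intervals. The HGC27 points lie between 0.309 and 4.26, and the AGS points lie below them in each pair, down to 0.000308 for miR-99a-5p over miR-99b-5p.

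In AGS the low counts of miR-99a-5p come beside a near-identical neighbour, being 3.04% and 2.18% of those of miR-100-5p with the negative and positive probe, against 43.3% and 35.0% in HGC27. let-7c-5p stood at 1.95% and 0.251% of let-7a-5p in AGS, and at 23.9% and 24.1% in HGC27. How many AGS counts of miR-99a-5p and let-7c-5p are reads of their neighbours was not tested. In order of level, AGS with the negative probe ran from miR-99b-5p over miR-125a-5p and miR-100-5p to miR-99a-5p and miR-125b-5p, and the last 2 did not differ beyond counting error, with 35 and 24 counts. With the positive probe miR-125a-5p led, and the last 2 stood at 30 and 31 counts. In HGC27 the order was miR-99b-5p, miR-100-5p, miR-99a-5p, miR-125a-5p and miR-125b-5p with the negative probe. With the positive probe miR-100-5p led, and miR-125a-5p had passed miR-99a-5p.

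The labelled cell type was checked with miRNAs typical of epithelial and of mesenchymal cells. The 5 epithelial miRNAs, miR-200a, b and c-3p, miR-141-3p and miR-429, had a summed score of 652 and 357 in HGC27 with the negative and positive probe and of 8296 and 750 in AGS, and miR-141-3p was at 0 in 3 of the 4 libraries. The 5 mesenchymal ones, miR-199a-3p, miR-199a-5p, miR-214-3p, miR-143-3p and miR-145-5p, summed to 3521 and 3616 in HGC27 and to 11 and 39 in AGS, where miR-214-3p and miR-145-5p were at 0. In HGC27 a single miRNA gave 2646 and 3301 of the mesenchymal sums, and the lowest of that list scored 1 and 2. A single miRNA likewise gave 617 and 331 of the epithelial sums there. The mesenchymal sum, rather than each miRNA of the list, was thus higher in HGC27, as were miR-99a-5p, let-7c-5p and miR-125b-5p. A link between them was not tested.

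miRNAs with the most similar profile over the 4 libraries were sought among the known ones with at least 100 counts, by the Euclidean distance of centred log2(score + 1). Nearest to miR-99b-5p were miR-29a-3p at 0.60, miR-30b-5p at 0.85 and miR-30d-5p at 0.89, all with a negative log2 ratio in both lines. Its neighbour let-7e-5p came at place 169, at 7.07. Nearest to miR-125a-5p were miR-500a-3p at 0.86, miR-222-3p at 1.35 and miR-574-5p at 1.49, and let-7e-5p came at place 19, at 2.74. For miR-99a-5p they were miR-340-5p at 0.93, miR-708-5p at 2.25 and miR-10b-5p at 2.30, and let-7c-5p came at place 9. For miR-125b-5p they were miR-10b-5p at 0.88, miR-9-5p at 1.09 and miR-129-5p at 1.27, and let-7c-5p again came at place 9. Its other clustered let-7, let-7a-5p, came at place 96, at 6.01. For miR-100-5p they were miR-214-5p at 0.71, miR-615-3p at 0.86 and miR-452-5p at 0.90, and let-7a-5p came at place 122, at 4.45. These distances over 4 libraries take in differences between the lines and between the probes, and the parts of each were not separated.

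Seed complements were counted in the FN1 3′-UTR, taken as the 1101 bases after the stop codon of an annotated GENCODE 29 transcript, and in its antisense strand. Neither strand held TACGGGT, the complement of the miR-99/100 seed, CTCAGGG, that of the miR-125 seed, or CTACCTC, that of the let-7 seed. For let-7i-5p the paper predicted binding to this 3′-UTR by another method. It reported lower luciferase reporter activity with a let-7i-5p mimic and no change with a mutant mimic. Lower FN1 3′-UTR expression after transfection of the mimic was reported too. Only perfect matches were counted here. Of the 478 seeds of known miRNAs in the table, 7.53% had such a match of 7 bases in the sense strand and 6.9% in the antisense strand. Matches to bases 2 to 7 alone, the last 6 letters of each motif, were not found either, where 25.7% and 22% of the 440 such seeds had one. The 3 families did not differ in this respect. In base composition they did, since the members hold between 27.3% and 40.9% C, miR-99b-5p the most, and the let-7 miRNAs none. The members hold between 16.7% and 22.7% G and the clustered let-7 miRNAs between 36.4% and 40.9%. Over the 190 known miRNAs with at least 100 counts, the share of C had a Spearman correlation of 0.0201 with the log2 ratio in HGC27 and of -0.0245 in AGS. For G the correlations were 0.186 and 0.224, for U 0.28 and 0.285, and for A -0.485 and -0.45. All are given as a description over miRNAs that share 2 libraries, and a part of base composition in recovery was not tested.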

How the data were processed

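Deposited by the authors were raw counts of tags for each mature miRNA and a score, tags per 1000000 rounded to whole numbers, for 4 libraries. Per the submitters' processing notes, cutadapt 1.9.3, Novoalign 3.02.12 and hg38 were used, and the miRNA database release is not given in the sources used here. The 901 rows were collapsed to 843 names, 570 of them known and 273 predicted. A blank was taken as 0. The divisors recovered from count and score exceed the table totals, which are 35.7% to 50% of them, and 5 to 10 scores per library were off by rounding. All sample columns were mapped.

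Groups came from the labels of line and probe. Ratios are of score + 1, called at 2 and 0.5, and folds carry exact 95% intervals from counts and divisors. Shares carry Wilson intervals and cross ratios conditional exact ones (scipy 1.17.1). edgeR 4.0.16 (R 4.3.3; TMM, filterByExpr, line and probe as terms, Benjamini-Hochberg over all miRNAs tested) gave the tests over all 4 libraries. The standard errors given for edgeR were back-calculated as the absolute log2 change over the square root of the F statistic of its test. As libraries of other conditions stand in for replicates, the p-values of edgeR measure the spread between these libraries, which may be technical. DESeq2 1.42.0 and limma 3.58.1 were alternatives. On simulated data at about the real spread, with strong probe changes and no difference between lines, edgeR made calls at this sample size. That setting differs from these data, so it does not show which changes could be detected here. The members and all lists were chosen with earlier results of these data known. Named were the members, their clustered let-7 and other arms, the 2 miR-10 relatives, 3 nearest profiles per member, the largest entries, the marker lists and any predicted entry sharing 16 bases with a member, of which there were 0.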

Additional observations from a re-analysis of the deposited data

Results flagged for a closer look

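In 4 of the 5 members the log2 ratio of positive over negative probe had opposite signs in HGC27 and AGS on the deposited scale. This depended on the scaling, and the members with opposite signs were 3 with the table total, 3 with DESeq2 size factors, 2 with TMM and 0 over a total that omits miR-372-3p. The AGS value minus the HGC27 value was 3.34 for hsa-miR-125a-5p (-0.02 in HGC27 and 3.32 in AGS), 2.44 for hsa-miR-100-5p (-1.44 and 1.00), 2.16 for hsa-miR-99a-5p (-1.75 and 0.42) and 1.28 for hsa-miR-125b-5p (-0.28 and 1.00). With 1 library per line and probe the difference was not tested, since a term for it would leave 0 residual degrees of freedom. For miR-125a-5p the HGC27 interval, -0.05 to 0.02, includes 0, and for miR-99a-5p the AGS interval, -0.23 to 1.27, does. miR-99b-5p was the exception, at -2.26 and -2.59.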

How the results depend on the processing

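Each group has 1 library, so none could be left out, and the only blocking was by line or probe in the edgeR fit. Dropping that term left the members called at 0 for the probe and 2 for the line, where 0 and 65 of 271 miRNAs were called. In HGC27 the counts of 0 enriched and 3 depleted members were the same under every scaling and pseudocount tried, and 0 of the 12 cross ratios against let-7 exceeded 1 with score + 1 in place of counts. At a threshold of 4 instead of 2, 1 member was depleted in HGC27 and 1 enriched in AGS. The members enriched in AGS were 1 with TMM, 1 with DESeq2 size factors, 1 with a total that leaves out miR-372-3p, 1 with unrounded tags, 1 with a pseudocount of 10 and 3 with the table total. The members lower in HGC27 than in AGS were 2 with TMM, 2 with DESeq2 size factors and 2 without miR-372-3p for the negative probe, and 2 and 2 with TMM and DESeq2 size factors for the positive probe. Shares over all miRNAs are not given for these scalings or the threshold of 4, so these member counts are descriptions only. For the probe over both lines DESeq2 called 1 member, and over 271 miRNAs edgeR with DESeq2 size factors made 32 calls, DESeq2 49 and the known miRNAs alone 25, against 0 in each of the other alternatives. For the line, DESeq2 called 4 members, all but miR-99b-5p, beside 62 of 271 miRNAs. There edgeR without a filter called 0 members, with 3 at an unadjusted p under 0.05. Over all miRNAs the line calls of edgeR were 169 of 271 with library totals, among them miR-100-5p, against 81. They were 15 of 123 with at least 10 counts in every library and 0 of 843 without a filter.

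Of 160 alternative values of single log2 ratios, 16 had another sign than the reported value. For HGC27 over AGS, miR-99b-5p was at -1.02 (TMM) and -1.33 (DESeq2 size factors) with the positive probe. With the negative probe it was at -2.15, -2.21 and -1.77 and miR-125a-5p at -2.08, -2.14 and -1.70 with TMM, DESeq2 size factors and without miR-372-3p. For the probe in AGS, miR-99a-5p was at -0.19 with TMM, and without miR-372-3p it was at -0.95, miR-100-5p at -0.50 and miR-125b-5p at -0.37. The other 4 were miR-125a-5p in HGC27, at 0.05 to 0.17 against -0.02. In the fits, miR-125b-5p had a log2 change for the probe of -0.14 with at least 10 counts in every library and -0.09 with no covariate, against 0.01, and miR-99b-5p had 0.73 for the line with library totals. The causes were not tested. Merging predicted entries gave no value, since there were none to merge. Counts of 24 to 38 limit the AGS values of chromosome 21.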

Other observations

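The miR-10 family is a distant relative of miR-99/100, with a seed that overlaps theirs in part. miR-10b-5p had a score of 1122 with the negative and 1625 with the positive probe in HGC27, a ratio of 1.45 (1.38 to 1.52), and 3 and 7 in AGS. Like miR-99a-5p and miR-125b-5p it was called higher in HGC27, by a log2 value of 5.24 (standard error 1.34, edgeR adjusted p = 0.000993). miR-10a-5p had scores of 320 and 367 in HGC27 and of 113 and 128 in AGS, ratios of 1.15 (1.05 to 1.25) and 1.13 (1.01 to 1.26), and was not called for the line, at -1.37 (standard error 1.15, edgeR adjusted p = 0.423). Neither was lower with the positive probe in HGC27, where the 3 miR-99/100 members were.

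With the share of A in a miRNA the log2 ratio of positive over negative probe had a Spearman correlation of -0.485 in HGC27 and -0.45 in AGS over 190 known miRNAs, a description over miRNAs that share 2 libraries per line. The members hold 5 or 6 A bases each and the clustered let-7 miRNAs 4 or 5.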
